A study of Drosophila melanogaster with 17 samples.

Results

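The translation initiation and elongation factors of the Drosophila larval fat body were followed across 2 diets and 2 genotypes. The genes were taken by name: every row of the deposited expression matrix whose symbol begins with eIF, Ef1 or Ef2 was a member. The rule found 33 of the 14659 rows, 28 of them named as initiation factors (eIF) and 5 as elongation factors (Ef). Of these, 19 had a mean of the 4 group means of at least 1 FPKM (a level that counts sequenced fragments relative to the length of the transcript and the size of the library) and are described below. Of the 19, 18 passed the minimum for testing, namely an average of 1 FPKM or more across all 17 libraries. Symbols follow the deposited matrix, and a differing current symbol is given in brackets.

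The RNA came from the fat body of female larvae, taken late in the third instar when they wander off the food. Wild-type larvae were VDRC w1118 with cgGAL4 and UAS-Dcr2, and knockdown larvae were UAS-ChREBPi(52606) with cgGAL4 and UAS-Dcr2. The driver and the extra Dicer-2 were therefore present in every group, and no group carried a control hairpin. The cgGAL4 driver is active in the fat body and is also known from hemocytes, the blood cells of the fly. The hairpin targets ChREBP, the sugar-responsive transcription factor that flies call Mondo or Mio. The titles call these larvae a fat body knockdown, while another label calls them a mutant. From hatching, larvae were fed semi-defined medium in which sucrose was 0.15 M for the control diet and 0.7 M for high sugar. Wild type had 6 libraries per diet, and the knockdown had 3 at 0.15 M and 2 at 0.7 M; the titles name all of them biological replicates. Nothing says whether they came from separate cultures, so the p-values measure the spread between these libraries, which may be partly technical.

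Translation begins when an mRNA is bound at its cap by eIF4E, which sits on the scaffold eIF4G together with the RNA helicase eIF4A and its helper eIF4B. A small ribosomal subunit that carries eIF1, eIF1A, eIF3, eIF5 and the initiator tRNA bound to eIF2 then scans to the start codon. During elongation eEF1A delivers each aminoacyl-tRNA, the eEF1B subunits recharge it with GTP, and eEF2 moves the ribosome along. The larval fat body is an organ of heavy protein secretion and storage, and its protein synthesis is known to follow nutrition through insulin and TOR signalling.

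Column totals ranged from 29778.6 to 62263.5 FPKM, and read depth is unknown. The knockdown target dmondo averaged 1.47 ± 0.283 FPKM (SD, n = 6) in control-diet wild type and 2.51 ± 0.385 (SD, n = 6) in wild type given high sugar, against 0.439 ± 0.116 (SD, n = 3) and 0.236 ± 0.0696 (SD, n = 2) in the knockdown. The 2 knockdown libraries on high sugar stood apart from the rest. Their summed level of 7 fat body markers was 2369 and 2727 FPKM, against 5269 to 12236 in the other 15 libraries, and none of these markers was listed at 0 in every library. Their summed level of 7 salivary gland markers was 6565 and 6772 FPKM, against 5.58 to 6045 elsewhere. The 11 midgut markers summed to 271 and 367 FPKM, against 1.76 to 141. The 6 hemocyte markers summed to 193 and 444, against 19.1 to 316, and the 6 muscle markers to 8.43 and 14.7, against 0.903 to 12.4. Long transcripts also read lower in these 2 libraries, with a Spearman correlation between level and transcript length over genes of -0.481 and -0.479, against -0.289 to 0.066 elsewhere. The part of these differences in the changes below was not tested, apart from the removal of the trend with length, whose values are given. In such bulk samples, fewer fat body cells and less RNA per cell cannot be told apart.

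Replicates 1 to 3 of each group carried 1 barcode per group (shared-barcode set), and wild-type replicates 4 to 6 carried a barcode each (own-barcode set). Every knockdown library was in the shared set, so the set difference was estimated from wild type alone. The 18 tested members often differed between the sets. In wild type on the control diet 3 members were higher and 6 lower in every own-barcode library than in every shared-barcode library, beside 8.69% and 48.8% of all 2383 tested genes. On high sugar 10 members were higher and 5 lower, beside 24.5% and 40.5%. An example was eIF-5A, which read 124 to 158 FPKM in the shared-barcode libraries of wild type on the control diet and 52.1 to 62.6 in the own-barcode libraries.

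The elongation factors were the most abundant members. In wild type on the control diet Ef1alpha48D (eEF1alpha1), which brings tRNA to the ribosome, stood at 270 ± 57.0 FPKM (SD, n = 6). Next came eIF-5A (eEF5), which despite its name relieves stalled ribosomes during elongation, at 99.9 ± 46.4, and Ef2b (eEF2), the translocase, at 49.7 ± 3.48. Ef1beta followed at 31.6 ± 5.95, the helicase eIF-4a at 26.0 ± 4.49 and Ef1gamma at 24.4 ± 4.45, 3 levels whose ranges over libraries overlapped. The other initiation factors lay far lower, from 13.1 ± 0.786 for eIF-1A and 11.5 ± 3.44 for eIF-4B down to 1.49 ± 0.491 for eIF-2alpha. Within the cap-binding complex the helicase exceeded the cap-binding protein eIF-4E at 6.10 ± 1.49 and the scaffold eIF4G at 3.86 ± 1.39 in every library. The 19 described members together made up 0.781% to 1.83% of a library's summed FPKM outside the knockdown on high sugar, and 0.572% and 0.577% in its 2 libraries. Much of this sum was Ef1alpha48D alone. On high sugar it averaged 324 of 673 FPKM in wild type and 81.8 of 340 in the knockdown, so the share does not describe the members one by one.

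**Figure D1:**
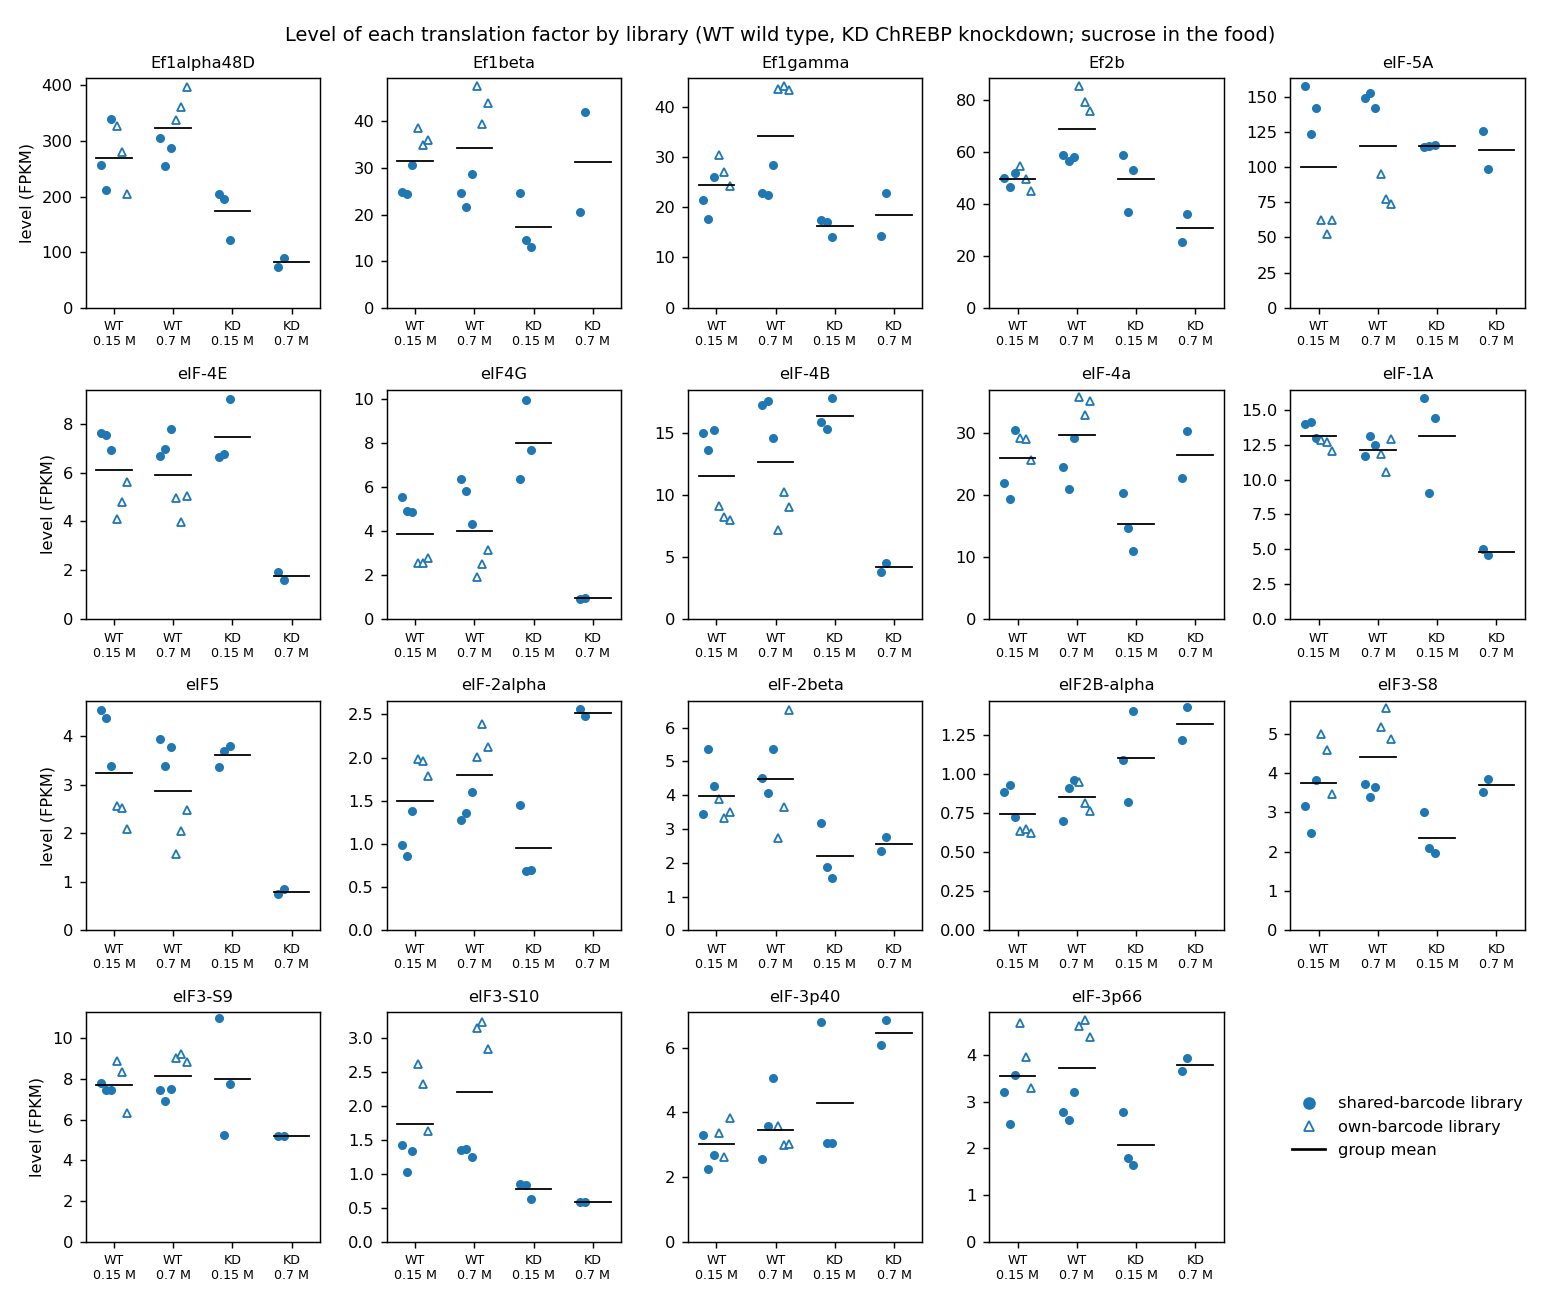
Level in FPKM (vertical axes, linear from 0) of the 19 described translation factors in each of the 17 libraries, by genotype and sucrose in the food. Filled circles are shared-barcode libraries, open triangles own-barcode libraries and lines group means. The 2 knockdown libraries on high sugar lie below every other library for Ef1alpha48D, Ef2b, eIF-4E, eIF4G, eIF-4B, eIF-1A and eIF5. They also do so for eIF3-S10 and, narrowly, for eIF3-S9.

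The factors did not move as one group. Knockdown on high sugar divided them. Among those lower than in wild type on the same food were Ef1alpha48D, Ef2b, eIF-4E, eIF4G, eIF-4B, eIF-1A and eIF5. The elongation factor Ef1beta, the helicase eIF-4a and 3 of the 5 tested eIF3 subunits did not pass, and eIF-2alpha and eIF-3p40 were higher. Of the 18 tested members 11 were lower and 2 higher by limma's test with an adjusted p under 0.05, beside 33.4% of all tested genes lower and 27.2% higher, 60.6% in all. The number called in either direction was thus close to that of genes at large. The median log2 change of the members was -0.59, against -0.08 over all tested genes. In 9 members every knockdown library on high sugar was below every wild-type library on high sugar, and in 2 every one was above (29.3% and 29.6% of all tested genes).

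On the other comparisons fewer members passed. High sugar in wild type raised 1 of 18, Ef2b, and lowered none (9.44% and 6.08% of all tested genes, 15.5% in all), with a median log2 change of 0.13 against 0.02 over all genes. Knockdown on the control diet changed none by limma (3.02% of all tested genes were higher and 2.6% lower, 5.62% in all), though 7 of 18 had an unadjusted p under 0.05 beside 19.2% of all genes, and the median was -0.17 against -0.03. High sugar in the knockdown raised 5 and lowered 7 (29.2% and 31.1% of all tested genes, 60.3% in all), with a median of -0.10 against 0.01. The response to sugar differed between the genotypes in 9 members, 2 more positive and 7 more negative in the knockdown (23.5% and 28.3% of all tested genes, 51.8% in all), with a median difference of -0.34 against -0.03. That number of calls was close to that of genes at large. These comparisons share their groups pairwise, so the knockdown on high sugar enters 3 of the 5. The split into higher and lower depended on the scaling. With the median of ratios it was 3 and 8 for knockdown on high sugar and 4 and 7 for the difference in response, and with 1 total per library it was 2 and 8 for sugar in the knockdown. The median of all genes shifted by 0.13 and 0.11 in the first 2 cases and by -0.18 in the last. The share of all tested genes called under these scalings is not given here, so the changed splits are not set against genes at large.

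**Figure D2:**
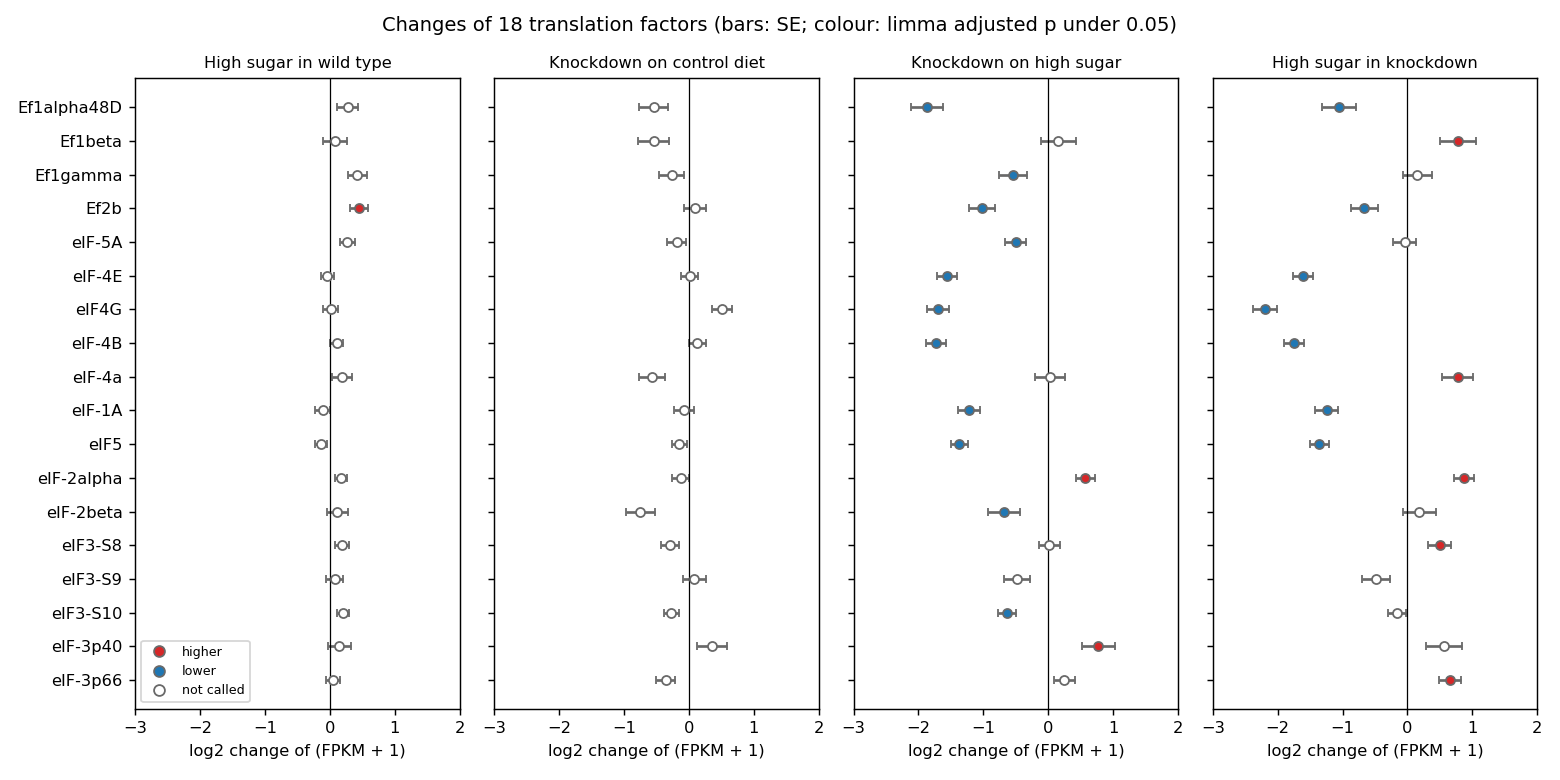
Log2 change of FPKM + 1 (horizontal axes) of the 18 tested translation factors in 4 comparisons, with bars of 1 SE; red is higher and blue lower at a limma adjusted p under 0.05, and white did not pass. The first 2 panels hold 1 coloured point, Ef2b with high sugar in wild type, while 13 members are coloured for knockdown on high sugar and 12 for high sugar in the knockdown.

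Among the elongation factors Ef1alpha48D showed the largest fall. Its level ran from 255 to 397 FPKM in wild type on high sugar (median 322, n = 6) and was 73.8 and 89.9 in the knockdown on high sugar. In wild type on the control diet it ran from 204 to 340 (median 269), and in the knockdown on the control diet it was 204, 196 and 123. The knockdown on high sugar lay below all other libraries. On the control diet the knockdown was only just below wild type, with a highest value of 203.75 FPKM against a lowest of 203.80. On the log2(FPKM + 1) scale Ef1alpha48D changed by -1.87 ± 0.25 (SE) in the knockdown on high sugar (limma adjusted p = 1.7e-05) and by -1.05 ± 0.26 with sugar in the knockdown (limma adjusted p = 0.0028), while the -0.55 ± 0.22 on the control diet did not pass (limma adjusted p = 0.18). The sugar response differed between genotypes by -1.32 ± 0.31 (limma adjusted p = 0.0024). Its close paralog Ef1alpha100E (eEF1alpha2) was under the minimum, and reads could have been split between the 2 copies.

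Ef2b, the only member raised by sugar in wild type, was lowered by it in the knockdown. It ran from 45.1 to 54.7 FPKM in control-diet wild type (median 49.8, n = 6) and from 56.5 to 85.5 on high sugar (median 67.5, n = 6). In the knockdown it was 58.9, 36.8 and 53.2 on the control diet and 25.3 and 36.2 on high sugar. The wild-type diets did not overlap, and both knockdown libraries on high sugar were below every library of the other groups. High sugar changed Ef2b by 0.45 ± 0.13 in wild type (limma adjusted p = 0.033) and by -0.67 ± 0.21 in the knockdown (limma adjusted p = 0.013), a difference of -1.12 ± 0.25 (limma adjusted p = 0.0018). Knockdown on high sugar changed it by -1.03 ± 0.20 (limma adjusted p = 0.00044). After removal of the length trend from every library these knockdown values were -0.11, -0.49 and -0.41 and none passed (limma adjusted p = 0.64, 0.089 and 0.071, in the same order). The rise in wild type did not pass without the barcode set term (limma adjusted p = 0.11), with no minimum on the level (limma adjusted p = 0.074), in the shared-barcode libraries only (0.22, limma adjusted p = 0.65) or with values scaled to 1 total per library (0.31, limma adjusted p = 0.067), nor with each of the 6 own-barcode libraries left out in turn. The fall with sugar in the knockdown was -0.42 (limma adjusted p = 0.18) without replicate 1 on high sugar.

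Of the 2 eEF1B subunits among the members, Ef1beta exchanges GDP for GTP on eEF1A and Ef1gamma is structural. Ef1gamma ran from 22.4 to 44.1 FPKM in wild type on high sugar (median 35.9, n = 6) and was 14.2 and 22.8 in the knockdown on high sugar. The groups overlapped, since the second knockdown library lay within the shared-barcode wild-type range. Its change of -0.54 ± 0.22 passed narrowly (limma adjusted p = 0.042), and was lost in 16 of the 30 alternatives. It was -0.22 (limma adjusted p = 0.50) without knockdown replicate 1 on high sugar, -0.28 (limma adjusted p = 0.21) with the length trend removed and -0.49 (limma adjusted p = 0.12) with the replicate block, and it did not pass with each of 8 wild-type libraries left out in turn (limma adjusted p = 0.051 to 0.075). Ef1gamma was 17.5, 17 and 14.1 in the knockdown on the control diet, where it did not pass. Ef1beta was 24.7, 14.6 and 13.0 FPKM in the knockdown on the control diet and 20.6 and 41.9 on high sugar. Although the 2 diets overlapped, its log2 change of 0.78 ± 0.28 passed (limma adjusted p = 0.027). Without knockdown replicate 2 on high sugar it was 0.28 (limma adjusted p = 0.46). In wild type Ef1beta ran from 24.4 to 38.6 on the control diet and from 21.5 to 47.5 on high sugar. Another exchange subunit outside the name rule, eEF1delta, fell by 1.53 ± 0.22 in the knockdown on high sugar (limma adjusted p = 3.1e-05), from 7.36 to 10.9 FPKM in wild type to 3.05 and 3.38. The ratio of Ef1alpha48D to Ef1gamma within a library was 3.94 and 5.19 in the knockdown on high sugar and 7.78 to 13.4 in the other groups.

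The level of eIF-5A moved with the barcode set. In the knockdown it was 114, 115 and 115 FPKM on the control diet and 126 and 98.4 on high sugar. The shared-barcode wild-type libraries on high sugar read 149, 153 and 142, all above the knockdown, and the own-barcode libraries read 95.2, 77 and 73.4, all below it. With the set term, knockdown on high sugar changed it by -0.50 ± 0.17 (limma adjusted p = 0.017); without that term the value was 0.02 (limma adjusted p = 0.97), and without knockdown replicate 2 on high sugar it was -0.33 (limma adjusted p = 0.21). An annotated noncoding RNA, lncRNA:CR44814, overlaps its exons.

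The cap-binding protein eIF-4E (eIF4E1) and the scaffold eIF4G (eIF4G1) fell together in the knockdown on high sugar. The level of eIF-4E ran from 4.00 to 7.80 FPKM in wild type on high sugar (median 5.86, n = 6) and was 1.92 and 1.60 in the knockdown on that food. On the control diet it ran from 4.09 to 7.64 in wild type (median 6.27, n = 6) and was 6.66, 6.75 and 9.02 in the knockdown. Only the knockdown on high sugar was apart, with both libraries below all 15 others. The log2 change was -1.56 ± 0.15 against wild type on high sugar (limma adjusted p = 1.2e-06) and -1.61 ± 0.16 against the control-diet knockdown (limma adjusted p = 1.1e-06). Knockdown on the control diet gave 0.01 ± 0.13 and sugar in wild type -0.04 ± 0.10, and neither passed. The sugar response differed between genotypes by -1.57 ± 0.19 (limma adjusted p = 1.4e-05).

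The scaffold moved further, with the knockdown at the top on one diet and at the bottom on the other. The level of eIF4G was 6.37, 9.97 and 7.66 FPKM in the knockdown on the control diet, above the 2.52 to 5.53 of wild type (median 3.82, n = 6). On high sugar it was 0.930 and 0.945 in the knockdown and 1.93 to 6.37 in wild type (median 3.72, n = 6). Neither pair of groups overlapped. The higher level on the control diet, 0.51 ± 0.15, did not pass (limma adjusted p = 0.070), but passed with the length trend removed (0.52, limma adjusted p = 0.019). Knockdown on high sugar changed eIF4G by -1.70 ± 0.18 (limma adjusted p = 2.0e-06) and sugar in the knockdown by -2.20 ± 0.18 (limma adjusted p = 3.1e-07). As the longest described transcript, with a median annotated length of 5806 bases, it shrank most when the length trend was removed, to -0.62 (limma adjusted p = 0.0018) and -1.12 (limma adjusted p = 1.9e-05).

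The helicase and its cofactor parted. The cofactor eIF-4B ran from 7.21 to 17.6 FPKM in wild type on high sugar (median 12.4, n = 6) and was 3.80 and 4.52 in the knockdown. In the knockdown on the control diet it was 15.9, 15.3 and 17.8, and in wild type 7.97 to 15.2 (median 11.4, n = 6). Both high-sugar knockdown libraries were below every other library, with a log2 change of -1.73 ± 0.15 against wild type (limma adjusted p = 4.1e-07) and of -1.75 ± 0.16 against the control diet (limma adjusted p = 4.9e-07). The helicase eIF-4a was 22.7 and 30.4 FPKM in the knockdown on high sugar, inside the 21.0 to 35.8 of wild type (median 31.2, n = 6), a log2 change of 0.03 ± 0.23 (limma adjusted p = 0.92). On the control diet it was 20.3, 14.7 and 11.1 in the knockdown and 19.4 to 30.5 in wild type (median 27.5, n = 6), and the 2 groups overlapped by 1 library. Sugar in the knockdown raised eIF-4a by 0.78 ± 0.24 (limma adjusted p = 0.011), or by 0.53 (limma adjusted p = 0.072) with the values scaled to 1 total per library, and without replicate 2 on high sugar the value was 0.58 (limma adjusted p = 0.13).

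The ratios within a library were chosen after the values were seen and were not tested. They do not depend on the scaling of a library, but they keep its trend with transcript length. The median annotated length is 5806 bases for eIF4G and 1893 for eIF-4a. The ratio of eIF4G to eIF-4a was 0.041 and 0.031 in the knockdown on high sugar, 0.054 to 0.278 in wild type on high sugar, 0.086 to 0.253 in wild type on the control diet and 0.313 to 0.692 in the knockdown on the control diet. In wild type on high sugar it was 0.147 to 0.278 in the shared-barcode set, which holds every knockdown library, and 0.054 to 0.089 in the own-barcode set. The ratio of eIF-4E to eIF-4a was 0.084 and 0.052 in the knockdown on high sugar and 0.121 to 0.332 in wild type on the same food. Both ratios were lower in the knockdown on high sugar than in any other library. The ratio of eIF4G to eIF-4E was 0.484 and 0.592, within the 0.390 to 0.955 of wild type on high sugar and below the 0.849, 0.956 and 1.48 of the knockdown on the control diet.

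**Figure D3:**
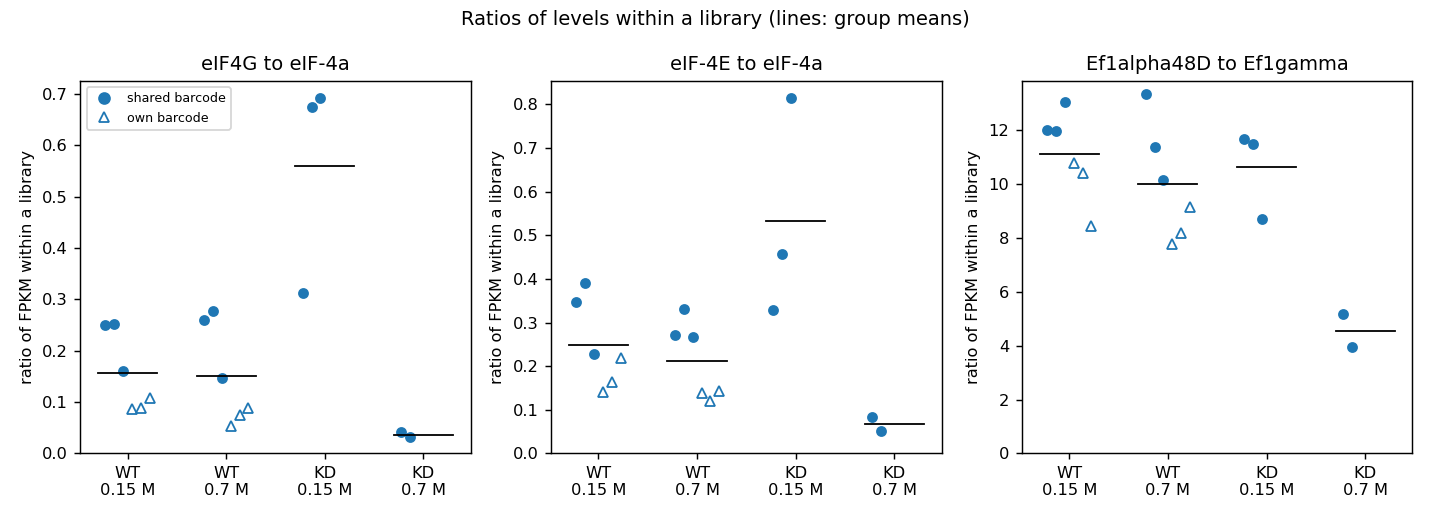
Ratio of the FPKM of one factor to that of another within a library (vertical axes, linear from 0) by genotype and sucrose in the food, with circles for shared-barcode and triangles for own-barcode libraries and lines at group means. The knockdown on high sugar has the lowest ratio of eIF4G to eIF-4a (0.031 and 0.041), of eIF-4E to eIF-4a (0.052 and 0.084) and of Ef1alpha48D to Ef1gamma (3.94 and 5.19). A library's trend with transcript length is not removed from these ratios.

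The 2 factors of scanning and start selection fell in the same way. The level of eIF-1A, which keeps the small subunit open for scanning, ran from 10.6 to 13.2 FPKM in wild type on high sugar (median 12.1, n = 6) and was 5.00 and 4.60 in the knockdown. On the control diet it was 15.9, 9.05 and 14.4 in the knockdown and 12 to 14.1 in wild type (median 12.9, n = 6). It was one of the steadiest members within wild type and changed in the knockdown on high sugar by -1.22 ± 0.17 (limma adjusted p = 3.1e-05), and with sugar in the knockdown by -1.25 ± 0.18 (limma adjusted p = 3.7e-05). The level of eIF5, which makes eIF2 hydrolyse GTP at the start codon, ran from 1.57 to 3.93 FPKM in wild type on high sugar (median 2.93, n = 6) and was 0.743 and 0.852 in the knockdown. In the knockdown on the control diet it was 3.36, 3.68 and 3.79, and in wild type 2.09 to 4.53 (median 2.97, n = 6). Both high-sugar knockdown libraries were again below all others, with -1.37 ± 0.13 against wild type (limma adjusted p = 1.3e-06) and -1.36 ± 0.14 against the control diet (limma adjusted p = 1.8e-06). Exons of other annotated genes overlap both factors (CG14312 for eIF-1A, CG46312 for eIF5), and it is not stated that reads were assigned by strand, so their values are less certain than those of the cap-binding factors.

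The subunits of eIF2, the complex that carries the initiator tRNA, went in opposite directions. The regulated subunit eIF-2alpha, whose phosphorylation by stress kinases slows initiation, was 2.56 and 2.48 FPKM in the knockdown on high sugar. It ran from 1.28 to 2.39 in wild type on high sugar (median 1.81, n = 6), from 0.865 to 1.98 in wild type on the control diet (median 1.58, n = 6), and was 1.46, 0.692 and 0.700 in the knockdown on the control diet. The knockdown on high sugar was above every other library. The change was 0.57 ± 0.14 against wild type (limma adjusted p = 0.0031) and 0.88 ± 0.15 against the control-diet knockdown (limma adjusted p = 0.00017), and the sugar response differed between genotypes by 0.70 ± 0.18 (limma adjusted p = 0.0045). Without the barcode set term the first and the last of these did not pass (0.35 and 0.70, limma adjusted p = 0.18 and 0.063). The subunit eIF-2beta ran from 2.72 to 6.53 FPKM in wild type on high sugar (median 4.29, n = 6) and was 2.34 and 2.76 in the knockdown, which overlapped it by 1 library. Its change of -0.68 ± 0.25 passed (limma adjusted p = 0.026), but without knockdown replicate 1 on high sugar it was -0.60 (limma adjusted p = 0.14), and without replicate 2 it was -0.77 (limma adjusted p = 0.068). On the control diet eIF-2beta was 3.16, 1.87 and 1.54 in the knockdown, below the 3.32 to 5.36 of wild type (median 3.70, n = 6), a change of -0.75 ± 0.22 that did not pass (limma adjusted p = 0.060). Exons of rngo overlap eIF-2alpha and those of ver overlap eIF-2beta.

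The exchange factor subunit eIF2B-alpha, which helps recycle eIF2, was described but not tested, since its mean over the 17 libraries was 0.911 FPKM. It ran from 0.619 to 0.930 FPKM in control-diet wild type (median 0.688, n = 6) and from 0.697 to 0.958 on high sugar (median 0.862, n = 6). In the knockdown it was 1.09, 0.819 and 1.40 on the control diet and 1.21 and 1.42 on high sugar. Both high-sugar knockdown libraries were above all wild-type libraries, but the choice of this gene favoured such a difference. Every wild-type library lay below 1 FPKM, so the mean over the 4 groups reached the minimum only through the knockdown. No conclusion is therefore drawn from this separation. Exons of CG42557 and CG42558 overlap eIF2B-alpha. The other 4 eIF2B subunits in the matrix (beta, gamma, delta and epsilon) lay under the minimum.

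The large complex eIF3, which bridges the small subunit to eIF4G, was split among its subunits. Of the 5 tested members that belong to it, knockdown on high sugar raised eIF-3p40 (eIF3h), lowered eIF3-S10 (eIF3a), and left eIF3-S8 (eIF3c), eIF3-S9 (eIF3b) and eIF-3p66 (eIF3d1) without a call. The level of eIF-3p40 was 6.07 and 6.86 FPKM in the knockdown on high sugar and 2.54 to 5.05 in wild type (median 3.29, n = 6). On the control diet it was 6.78, 3.07 and 3.05 in the knockdown, so a library on the control diet reached the level of those on high sugar. Its change against wild type was 0.77 ± 0.26 (limma adjusted p = 0.018), or 0.59 (limma adjusted p = 0.089) with the values scaled to 1 total per library. With either knockdown library on high sugar left out it did not pass (0.85 and 0.70, limma adjusted p = 0.055 and 0.11), and exons of senju overlap it.

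For eIF3-S10, the scaffold subunit with the second longest described transcript (3832.5 bases), the direction depended on the removal of the length trend. It was 0.587 and 0.585 FPKM in the knockdown on high sugar and 0.845, 0.840 and 0.632 on the control diet. In wild type it ran from 1.26 to 3.25 on high sugar (median 2.11, n = 6) and from 1.04 to 2.62 on the control diet (median 1.53, n = 6). Neither knockdown group overlapped wild type on the same food. As deposited, it changed by -0.63 ± 0.13 in the knockdown on high sugar (limma adjusted p = 0.00085); with the length trend removed the value was 0.19 (limma adjusted p = 0.18). With that trend removed sugar in the knockdown raised it by 0.65 (limma adjusted p = 0.00043), and the genotypes differed by 0.47 (limma adjusted p = 0.016).

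The subunits eIF3-S8 and eIF-3p66 rose with sugar in the knockdown. The level of eIF-3p66, which can bind the cap itself in human cells, was 2.78, 1.80 and 1.65 FPKM in the knockdown on the control diet and 3.66 and 3.93 on high sugar. The diets did not overlap in the knockdown, and the change was 0.66 ± 0.17 (limma adjusted p = 0.0046). In wild type it ran from 2.52 to 4.68 on the control diet and from 2.62 to 4.76 on high sugar, and the genotypes differed in their response by 0.61 ± 0.21 (limma adjusted p = 0.023), which did not pass without the barcode set term (limma adjusted p = 0.12) or with either knockdown library on high sugar left out (limma adjusted p = 0.052 and 0.091). The level of eIF3-S8 was 3.02, 2.09 and 1.96 in the knockdown on the control diet and 3.53 and 3.85 on high sugar, a change of 0.50 ± 0.17 (limma adjusted p = 0.021), or 0.29 (limma adjusted p = 0.22) with the values scaled to 1 total per library; with either high-sugar library left out it did not pass (limma adjusted p = 0.054 and 0.11). In wild type eIF3-S8 ran from 2.48 to 5.65 over both diets. The RNA-binding subunit eIF3-S9 ran from 5.18 to 11 FPKM over all libraries and passed in no comparison of the main fit. It was 5.21 and 5.18 in the knockdown on high sugar, just below all other libraries, and 6.93 to 9.24 in wild type on that food. It was closest for knockdown on high sugar, at -0.48 ± 0.20 (limma adjusted p = 0.051). That change passed in some alternatives, such as without the barcode set term (-0.56, limma adjusted p = 0.040). With values scaled to 1 total per library it also passed (-0.63, limma adjusted p = 0.019), as did sugar in the knockdown (-0.69, limma adjusted p = 0.015).

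Of 16 rows in the matrix whose current symbol begins with eIF3, members included, 13 were tested. Knockdown on high sugar raised 3 of them and lowered 3, with a median of 0.01, beside 27.2% and 33.4% of all tested genes, so these counts were not above those of genes at large. Outside the name rule, CG9769 (eIF3f1) rose by 1.20 ± 0.19 (limma adjusted p = 6.8e-05), from 3.43 to 5.54 FPKM in wild type to 10.5 and 11.3, and CG10306 (eIF3k) rose by 0.76 ± 0.18 (limma adjusted p = 0.0021). CG5642 (eIF3l) fell by 1.03 ± 0.16 (limma adjusted p = 5.7e-05), from 4.21 to 7.45 FPKM in wild type to 2.61 and 3.04, and Tango7 (eIF3m) changed by -0.48 ± 0.19 (limma adjusted p = 0.039). With the length trend removed 5 were higher and 1 lower with a median of 0.35 (54.5% of all genes tested that way were called). The median was -0.13 with values scaled to 1 total per library, where 2 were higher and 5 lower, so the split depended on the scaling. In that fit the median of all tested genes was -0.20. The share of all genes called there is not given here, so these counts are not set against genes at large.

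**Figure D4:**
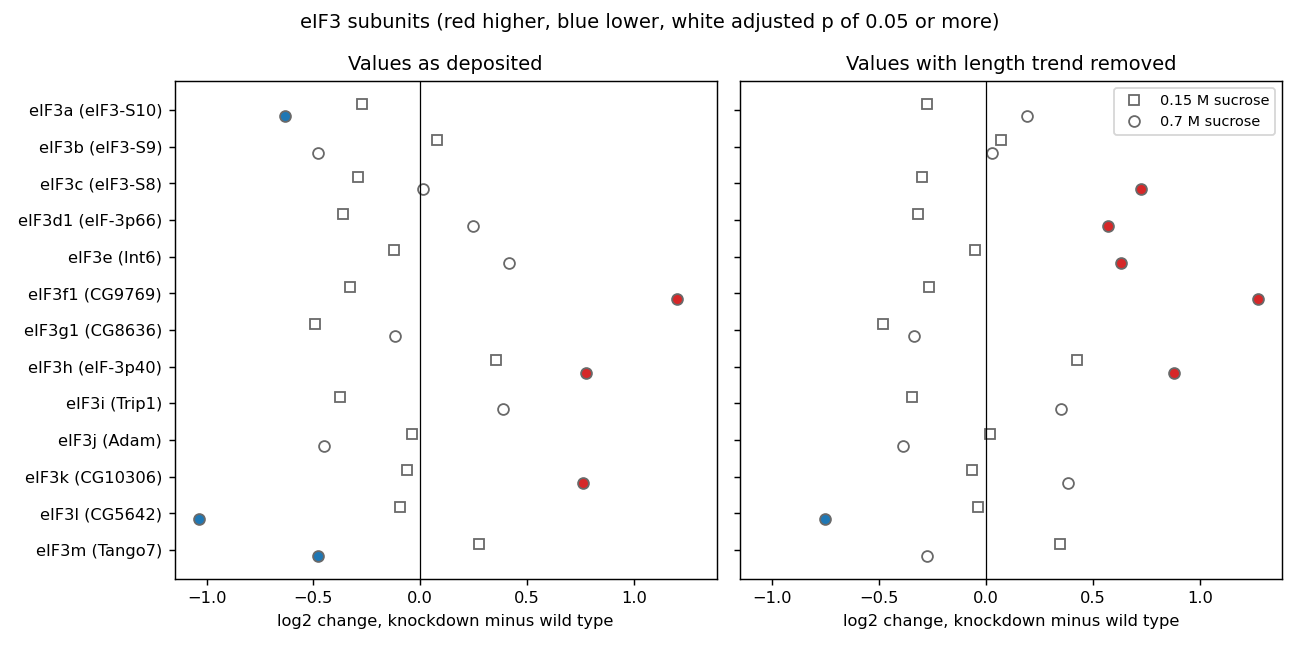
Log2 change in the knockdown against wild type (horizontal axes) of 13 eIF3 subunits on 0.15 M sucrose (squares) and 0.7 M sucrose (circles), as deposited and after removal of the length trend; red is higher, blue lower and white did not pass. No square is coloured; on 0.7 M sucrose eIF3f1 is the highest subunit in both panels and eIF3l the lowest, while eIF3a moves from lower to uncoloured.

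High sugar in wild type left most factors near their control level. Besides Ef2b the closest was Ef1gamma, which ran from 17.7 to 30.4 FPKM on the control diet (median 25.1, n = 6) and was 0.42 ± 0.14 higher on high sugar without passing (limma adjusted p = 0.061). Within the own-barcode set alone 4 of 18 members rose and none fell. Of all tested genes 33.4% were called in that set and 21.4% were higher, so the number of members that rose was close to that of genes at large. The 4 were Ef2b at 0.68 ± 0.17 (limma adjusted p = 0.0066), Ef1gamma at 0.67 ± 0.18 (limma adjusted p = 0.011), eIF-5A at 0.46 ± 0.14 (limma adjusted p = 0.019) and eIF3-S10 at 0.36 ± 0.11 (limma adjusted p = 0.023). Within the shared-barcode set no member passed by limma, and 0 had an unadjusted p under 0.05 (6.38% of all tested genes passed), with 0.22 ± 0.17 for Ef2b and 0.18 ± 0.18 for Ef1gamma. A test of the difference between the sets called none of the 18 by limma, and 0 had an unadjusted p under 0.05 (19.8% of all tested genes passed). Salivary gland markers summed to 5.58 to 18.5 FPKM in the own-barcode libraries on high sugar and 33.8 to 604 on the control diet, and their part in these changes was not tested.

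Knockdown on the control diet gave lower values for the tested eEF1 subunits among the members and for several initiation factors, none of which passed. The lowest were eIF-2beta at -0.75 ± 0.22, eIF-4a at -0.57 ± 0.20 (limma adjusted p = 0.12), Ef1alpha48D at -0.55 ± 0.22 and Ef1beta at -0.55 ± 0.24 (limma adjusted p = 0.22), and the highest was eIF4G. In 2 members every knockdown library was above every wild-type library and in 4 every one was below (7.51% and 5.46% of all tested genes). Among the 4, Ef1alpha48D was below by almost nothing (203.75 against 203.80 FPKM). Without knockdown replicate 1 on the control diet eIF4G passed as higher, and eIF-2beta, eIF-4a and eIF-3p66 as lower. The share of all tested genes that passed in that fit is not given here, so these calls are not set against genes at large. That library read higher than its 2 companions for, among others, Ef1beta, eIF-4a, eIF3-S9, eIF-3p40, eIF-2beta, eIF-2alpha, eIF3-S8 and eIF-3p66.

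Transcript length went with part of the change in the knockdown on high sugar. Over the 18 tested members the Spearman correlation between log2 change and median annotated transcript length was -0.27, and over the 2312 tested genes with a length it was -0.43, a description across genes that share the same libraries. With the length trend removed from each library, 8 members were lower and 4 higher (54.5% of all genes tested that way were called), with a median of -0.35 against 0.00 over all genes. Lower in that fit were Ef1alpha48D at -1.54 (limma adjusted p = 2.4e-05), eIF-4B at -1.51 (limma adjusted p = 2.1e-06), eIF-4E at -1.36 (limma adjusted p = 8.1e-06) and eIF-1A at -1.24 (limma adjusted p = 2.5e-05), followed by eIF-5A at -0.93, eIF5 at -0.86, eIF-2beta at -0.77 and eIF4G at -0.62. Higher were eIF-3p40 at 0.88, eIF3-S8 at 0.73, eIF-2alpha at 0.69 and eIF-3p66 at 0.57.

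**Figure D5:**
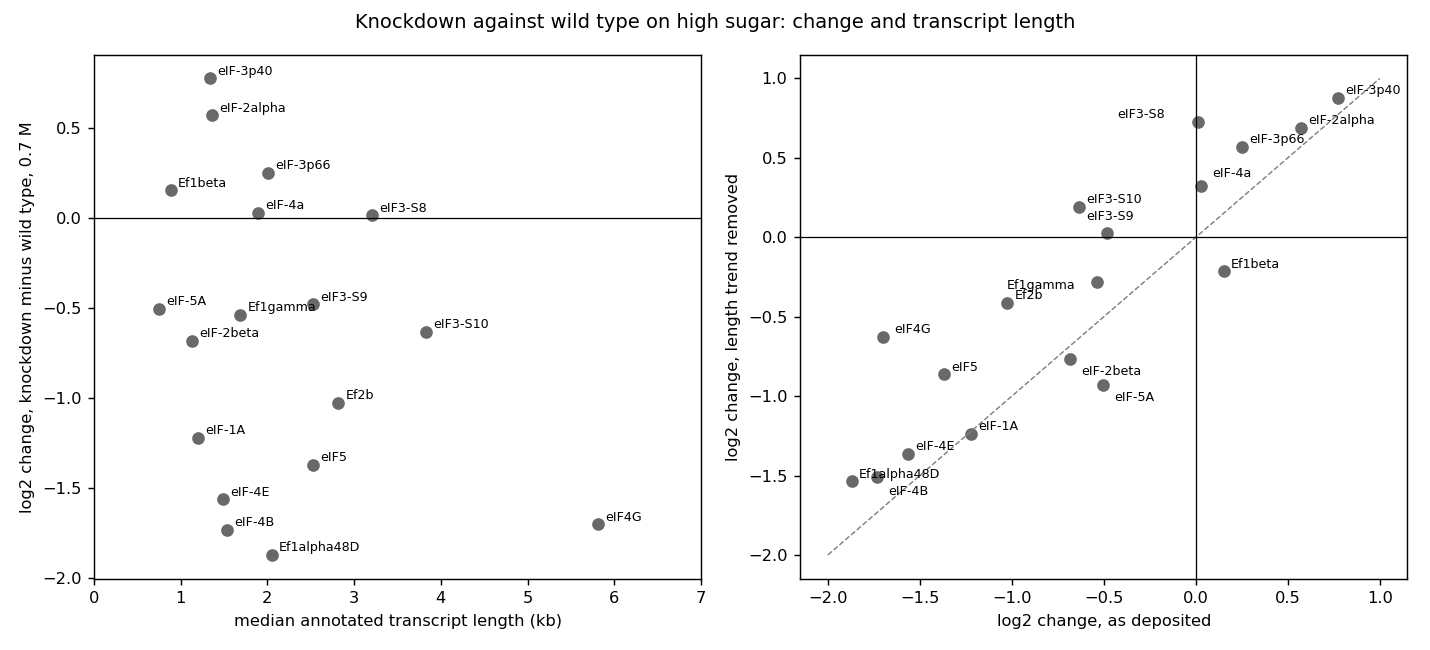
Log2 change of the 18 tested translation factors in the knockdown against wild type on high sugar, against median annotated transcript length in kilobases (left) and as deposited against with the length trend removed (right; the dashed line marks equal values). Short transcripts such as eIF-4E, eIF-4B and eIF-1A are low on both axes and lie near the dashed line, while eIF4G rises from -1.70 to -0.62.

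The partners of these factors outside the name rule were followed as well. Of 25 initiation factors and partners 15 were tested, and knockdown on high sugar raised 2 and lowered 5, beside 27.2% and 33.4% of all tested genes, which is no higher a share than that of genes at large. The median log2 change was -0.18, or 0.02 with values scaled by the median of ratios. Those lowered outside eIF3 were Paip2, a protein that keeps poly(A)-binding protein from the mRNA, at -1.84 ± 0.26 (limma adjusted p = 2.9e-05), dNAT1 (NAT1), an eIF4G relative, at -1.24 ± 0.24 (limma adjusted p = 0.00038), and the ribosome recycling ATPase pix at -0.60 ± 0.20 (limma adjusted p = 0.018). With the length trend removed dNAT1 and pix no longer passed, at -0.19 and -0.21. The poly(A)-binding protein pAbp itself was 54.3 and 57.5 FPKM in the knockdown on high sugar, within the 19.8 to 83.2 of wild type. On the control diet the knockdown changed 1 of the 15 (5.62% of all tested genes), CG17737 (eIF1), the partner of eIF-1A in scanning, by -0.62 ± 0.13 (limma adjusted p = 0.013). High sugar in wild type, where 9.44% of all tested genes were higher and 6.08% lower, raised 1, CG7414 (eIF2A), by 0.52 ± 0.12 (limma adjusted p = 0.0086), and lowered 1, Paip2, at -0.73 ± 0.17 (limma adjusted p = 0.011).

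Genes that control initiation were mostly lower in the knockdown on high sugar. Of 17 found 9 were tested, and knockdown on high sugar lowered 8 and raised none, beside 33.4% and 27.2% of all tested genes, with a median of -0.83 against -0.08. The largest fall was that of Thor, the eIF4E-binding protein that blocks the assembly of the cap-binding complex. It ran from 90.1 to 220 FPKM in wild type on high sugar (median 170, n = 6) and was 21.4 and 16.7 in the knockdown, a change of -3.49 ± 0.21 (limma adjusted p = 3.1e-08). Knockdown on the control diet changed it by -0.98 ± 0.19 (limma adjusted p = 0.0047), with 90.0, 137 and 141 FPKM against 101 to 271 in wild type (median 183, n = 6). Since eIF-4E fell less, the ratio of Thor to eIF-4E was 11.1 and 10.5 in the knockdown on high sugar and 22.5 to 32.0 in wild type on the same food. The stress-response transcription factor cryptocephal (crc, the fly ATF4) fell by 1.75 ± 0.20 (limma adjusted p = 4.9e-06), and the TOR activator Rheb changed by -0.83 ± 0.17 (limma adjusted p = 0.00059). With the length trend removed 4 of the 9 were lower and none higher (54.5% of all genes tested that way were called), and Lk6, the kinase of eIF4E, changed from -0.86 to 0.16 (limma adjusted p = 0.43).

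Ribosomal protein genes went the other way. Of 93 cytosolic ribosomal protein genes 84 were tested, and knockdown on high sugar raised 50 and lowered 11, beside 27.2% and 33.4% of all tested genes, with a median of 0.70. With the length trend removed 31 were higher and 15 lower (54.5% of all genes tested that way were called) with a median of 0.34, and under the 3 scalings tried the median was 0.51 to 0.89. Of 9 genes of cytosolic elongation, release and diphthamide synthesis (the modification of eEF2) outside the name rule 4 were tested, and 2 fell (33.4% of all tested genes), eEF1delta as given above and the release factor Elf (eRF3), which changed by -0.77 ± 0.16 (limma adjusted p = 0.00082). Of 20 aminoacyl-tRNA synthetases 3 were tested: Aats-asn (AsnRS) rose by 0.73 ± 0.11 (limma adjusted p = 6.1e-05), Aats-asp (AspRS) fell by 0.91 ± 0.18 (limma adjusted p = 0.00047) and Aats-tyr (TyrRS) did not pass. None of the 9 mitochondrial translation factors found reached the minimum.

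The 14 members under the minimum were, from the highest, eIF4AIII at a mean over the groups of 0.876 FPKM, eIF5B at 0.617, eIF2B-gamma, eIF6, eIF2B-beta, Ef1alpha100E, eIF2B-delta, eIF4E-3, eIF2B-epsilon, eIF4G2, eIF4E-5, eIF4E-4, eIF4E-7 and eIF4E-6. Just inside it were eIF2B-alpha at 1.003 and eIF3-S10 at 1.32. All 5 further eIF4E isoforms and the scaffold eIF4G2 lay at or below 0.240 FPKM, which leaves eIF-4E as the eIF4E isoform above the minimum, and eIF4E-6 was listed at 0 in every library.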

How the data were processed

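Fat body RNA was sequenced in 17 libraries. The submitters' processing notes name build dm3, TopHat 1.3.2, Bowtie 0.12.7 and Cufflinks 1.1.0, while annotation, options and strand are not given in the sources used here. Each library is a column of the deposited matrix, whose header names no unit; the values were taken as FPKM from that tool list, and a further scaling by the authors is possible, so no counting interval is given. All 17 columns were mapped to samples (0 value columns left unmapped). Current symbols, transcript lengths and exon overlaps came from Ensembl and RefSeq annotations of a later assembly, with 13566 rows matched.

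The analysis used log2(FPKM + 1), a scale on which changes of low genes are understated. In R 4.3.3, limma 3.58.1 (trended and robust empirical Bayes) fitted group means and an additive barcode set to 2383 genes that averaged 1 FPKM or more. Tests were 2-sided; p-values were adjusted by Benjamini-Hochberg over these genes for each comparison, and 0.05 was the threshold. The procedure was tested on simulated data. Changes set beside FPKM come from this fit and can differ from ratios of group means, which average both sets in wild type. For the length alternative each library's loess trend (span 0.5) of log2 value against log transcript length was removed, with a length for 2312 tested genes (97.0%) and all 19 described members. Errors are SE for changes and SD for levels.

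The numbers shared by replicates of different groups were checked for pairing: 18 same-numbered pairs had correlations of deviations from -0.24 to 0.22, and 5 were over 0.1, so no pairing was assumed. The members and the 6 gene lists were chosen with earlier results of these data known. All members with a mean of at least 1 over the 4 groups were described; those that passed in at least 1 comparison, and the main elongation and cap-binding factors, were given by library, and list genes were named where they passed in at least 1 comparison. Selection of pAbp and of the ratios came after inspection of the values. The alternatives tried are given in the closing section.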

Additional observations from a re-analysis of the deposited data

Results flagged for a closer look

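In 9 of the 18 tested factors the response to high sugar differed between knockdown and wild type by a test of the difference itself (limma interaction term, adjusted p under 0.05, beside 51.8% of all tested genes). The number called was thus close to that of genes at large, and the count alone does not set the members apart. The log2 response was more negative in the knockdown by -2.21 for eIF4G, -1.86 for eIF-4B, -1.57 for eIF-4E, -1.32 for Ef1alpha48D, -1.22 for eIF5, -1.14 for eIF-1A and -1.12 for Ef2b. It was more positive by 0.70 for eIF-2alpha and 0.61 for eIF-3p66. The 2 knockdown libraries on high sugar enter all 9 values; their fat body markers summed to 2369 and 2727 FPKM and their salivary gland markers to 6565 and 6772, and the part of these differences was not tested. With the length trend removed the values were -1.15 for eIF4G (limma adjusted p = 0.00013), -0.70 for eIF5 (limma adjusted p = 0.0047) and -0.49 for Ef2b, which did not pass (limma adjusted p = 0.089), and without a barcode set term those for eIF-2alpha (0.70, limma adjusted p = 0.063) and eIF-3p66 (0.61, limma adjusted p = 0.12) did not pass. The value for eIF-3p66 also did not pass with either knockdown library on high sugar left out (limma adjusted p = 0.052 and 0.091). In the 38 sets of 6 wild-type libraries examined, no library of a described member stood far enough from the others to be singled out. Each of these sets mixed shared-barcode and own-barcode libraries, which often did not overlap, so a single library could hardly stand out. The rate of about 1 in 20 expected by chance holds only for libraries of 1 kind, so nothing is drawn from this check.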

How the results depend on the processing

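Each result was recomputed under 30 alternatives, of which 17 left out 1 library. Of 90 member changes 35 passed as reported, and 20 of these passed under every alternative run: the 3 changes involving the knockdown on high sugar for Ef1alpha48D, eIF-1A, eIF-4B, eIF-4E, eIF4G and eIF5, and the rise with sugar in the knockdown of eIF-2alpha and eIF-3p66. Another 73 alternative values changed sign where neither value passed. The member called with high sugar in wild type was lost (0) without a barcode set term, in shared-barcode libraries only, with values scaled to 1 total and with length trend removed in shared-barcode libraries (an alternative chosen after seeing the data), while no minimum on the level gave 1, a member outside the 18, with Ef2b no longer passing. Counts of 2 came with group-by-set means, with scaling by the median of ratios and with length trend removed. Knockdown on the control diet gave 1 with length trend removed (eIF4G, higher) and 1 when shared-barcode libraries only were also used (eIF3-S10, lower). With a minimum mean of 5, which left 10 members, the counts were 7 for knockdown on high sugar, 7 for sugar in the knockdown and 5 for the difference in response. Leaving out each library in turn gave 10 to 14 for knockdown on high sugar, 9 to 13 for sugar in the knockdown, 8 to 12 for the difference, 0 to 2 for sugar in wild type and 0 to 4 for knockdown on the control diet. The share of all genes called under these alternatives is not given here. In the main fit it was 60.6% for knockdown on high sugar, 60.3% for sugar in the knockdown and 51.8% for the difference. The counts therefore describe only how far the calls depend on the processing.

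Reversed values were those of eIF-5A for knockdown on high sugar without a barcode set term (0.0208) and of eIF3-S10 with length trend removed: 0.19 for knockdown on high sugar, 0.65 for sugar in the knockdown and 0.47 for the difference, or 0.28, 0.65 and 0.65 in shared-barcode libraries only. Fewer genes or samples entered the minimum and the shared-barcode alternatives; the cause of the other changes was not tested. With the replicate number as a block in place of the set, which shares only a number between libraries, 12 members passed for knockdown on high sugar, 11 for sugar in the knockdown, 9 for the difference, 0 for knockdown on the control diet and 0 for sugar in wild type. These counts too stand without the share of all genes called in that fit. Depth is unknown, so counting error could not be set beside any level. The planned search of promoters for motifs was not run, since no sequences were used here.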
